A study of Arabidopsis thaliana with 6 samples.

Results

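A set of 10 *Arabidopsis thaliana* genes that make abscisic acid or break it down was examined. They were chosen by locus: *NCED2*, *NCED3*, *NCED5*, *NCED9*, *ABA1*, *ABA2*, *ABA3*, *AAO3*, *CYP707A1* and *CYP707A3*. The Agilent array measured them with 15 of its 43603 probes, out of 25410 genes that could be matched to a probe. RNA came from guard cell protoplasts (GCPs), which are guard cells freed of their walls by enzymes, isolated from mature rosette leaves. SL plants had grown for 3 weeks under an 8 h day and then for 2 weeks under a 16 h day, whereas SS plants had spent all 5 weeks under the 8 h day. Both groups were *gl1* plants of the Columbia background, which lack leaf hairs, and each had 3 arrays, 1 for each of 3 independent plant batches. The labels give a light intensity of 41 µmol m-2 s-1 in the long day and 100 in the short day, so that day length and light intensity cannot be told apart. For the time of isolation the labels give ZT16 (zeitgeber time, hours after lights on) for SL and ZT8 for SS, while the study's text gives ZT16 for both. By the labels both groups were taken at the end of their day, and by the text SS plants were already in darkness. Either way, the hour or the light at isolation also differed between the groups and cannot be told apart from day length.

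Abscisic acid is the hormone that closes stomata under drought, and it is made from carotenoids. Zeaxanthin epoxidase (*ABA1*) turns zeaxanthin into violaxanthin in the plastid. The 9-*cis*-epoxycarotenoid dioxygenases (NCEDs) then cut the epoxycarotenoids to xanthoxin, which is widely taken as the committed step. In the cytosol, a short-chain dehydrogenase (*ABA2*) forms abscisic aldehyde, and an aldehyde oxidase (*AAO3*), whose molybdenum cofactor is activated by the sulfurase *ABA3*, forms the acid. The CYP707A cytochromes P450 hydroxylate abscisic acid and so start its main route of breakdown. Guard cells are known to carry this pathway themselves. The arrays measured transcripts only, not the hormone or the enzymes.

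The signal used here is the background-corrected, quantile normalized brightness of a probe in arbitrary units, and signals of different probes were not compared with each other. A probe counted as measured if the scanner software placed it well above background on each of the 3 arrays of SL, of SS or of both. This held for 14 of the 15 probes and for at least 1 probe of each of the 10 genes. On each array between 65.3% and 70.7% of all probes were well above background, with the fewest in SL replicate 2. The guard cell markers were present in both groups. Over 8 of them, the summed signal was between 62332 and 97974 in SL and between 66250 and 132573 in SS, and 0 were higher and 2 were lower in SL in all 3 pairs. The summed signals of markers of other cell types were lower in SL, though not every gene followed. The summed signal of 10 mesophyll markers, which encode light-harvesting and carbon fixation proteins, was 94170, 49703 and 92516 in SL replicates 1 to 3 and 167288, 99870 and 195832 in SS replicates 1 to 3, and 10 of 10 were lower in SL in all 3 pairs. Of 8 phloem and xylem markers 7 were lower and 1 was higher in all 3 pairs, with sums between 2228 and 2875 in SL and between 2985 and 3776 in SS. The 5 markers of pavement epidermis summed to between 37048 and 38686 in SL and to between 44776 and 65198 in SS. Singly, however, 1 of them was lower and 0 were higher in SL in all 3 pairs, and 4 had mixed signs. In such bulk samples, fewer cells of a type and less RNA of these genes per cell, guard cells included, cannot be told apart.

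The comparison asks whether these transcripts differed between SL and SS guard cells, and it cannot credit a difference to day length alone. Most of the 10 genes had similar signals in SL and SS. *ABA1* had the largest difference and was lower in SL in every batch, *NCED2* and *NCED5* were modestly higher in every batch, and *ABA2* was slightly lower in every batch. For the other 6 genes the sign differed between batches. The groups overlapped for all 10 genes, while 8.22% of all genes had groups that did not overlap. A *limma* fit without the batch called 0 of the 10 genes at an adjusted p below 0.05, as it did 0% of all 18001 genes tested. At an unadjusted p below 0.05 the same fit had 0 of the 10 genes and 3.72% of all genes. With the replicate number as a block, so that SL and SS of one batch are compared, *limma* called 1 of the 10 genes, *ABA1*, as lower. The same fit called 4.72% of all genes, 3.14% lower and 1.57% higher. Same-sign differences in all 3 pairs were found for 4 of the 10 genes, 2 in each direction, against 48.9% of all genes (24.6% higher and 24.4% lower). The median log2 fold change of the 10 genes was 0.06, against 0.01 over all genes tested, and it was -0.02 without SL replicate 2 and -0.03 without SS replicate 3.

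**Figure D1:**
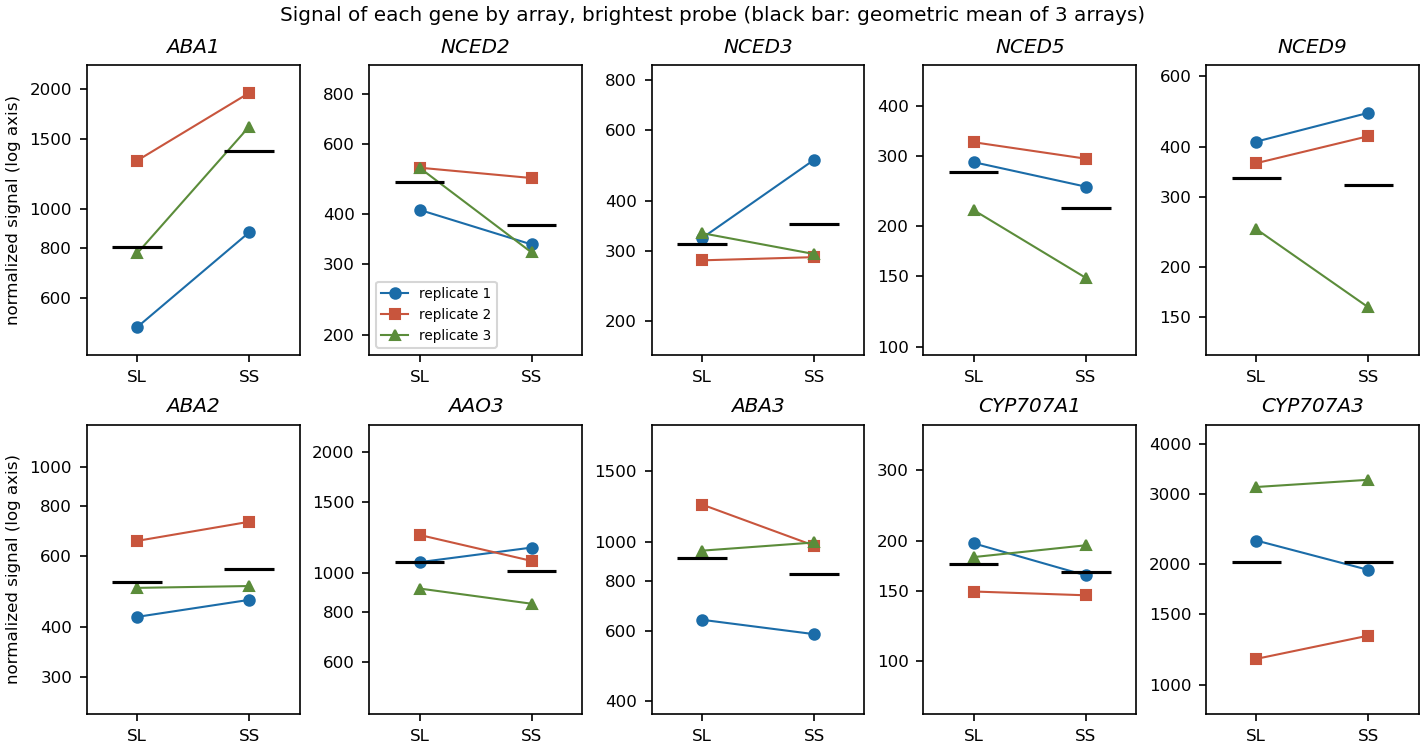
Normalized signal (log axis, arbitrary units) of the 10 genes by their brightest probe, with SL left of SS, lines joining SL and SS of one replicate number, and black bars for the geometric mean of 3 arrays. *ABA1* lies below its SS partner in each of the 3 SL samples, and *CYP707A3* is ordered by replicate alike in both groups.

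*ABA1* (AT5G67030, chromosome 5), the zeaxanthin epoxidase gene, had signals of 507, 1322 and 775 in SL replicates 1 to 3, against 875, 1950 and 1606 in SS replicates 1 to 3. Each SL sample was below the SS sample of its own batch, but SL replicate 2 was above SS replicate 1, so that the groups overlapped. The signal averaged 868 ± 415 in SL and 1477 ± 549 in SS (SD, n = 3 each). Within batches the ratio of SL to SS was 0.58, 0.678 and 0.482 for replicates 1 to 3. The log2 fold change was -0.80 ± 0.43 (SE) with an adjusted p of 1 in *limma* without the block. With the block the SE was 0.11, the 95% interval was -1.08 to -0.52 and the adjusted p was 0.0243. Exact two-sided permutation tests gave p = 0.2 for the 3 arrays against 3 and p = 0.25 for the 3 pairs, where the smallest possible values are 0.1 and 0.25. On the first slide, which held replicate 1, the difference was -0.79, and on the second, with replicates 2 and 3, it was -0.81.

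A second probe for *ABA1* had signals of 135, 223 and 143 in SL and 166, 239 and 221 in SS. It was also lower in all 3 pairs, with ratios of 0.811, 0.931 and 0.645, but its log2 fold change of -0.35 was smaller and was not called with the block (*limma*, adjusted p = 0.153). With the block, the adjusted p of the brighter *ABA1* probe was 0.107 without replicate 1 and 0.149 without replicate 2, and 0.0547 and 0.0928 when 2 scalings to the 75th percentile replaced quantile normalization. The log2 fold change in these fits was -0.81, -0.92, -0.84 and -0.76 in the same order, and without the block it was smallest, at -0.47, without SL replicate 1. The mesophyll markers moved in the same direction as *ABA1*: the ratio of SL to SS of their sum was 0.563, 0.498 and 0.472 for replicates 1 to 3. Within each group their sum was lowest in replicate 2, where *ABA1* was highest. The part of the mesophyll, vascular and pavement cell markers in the *ABA1* difference was not tested.

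**Figure D2:**
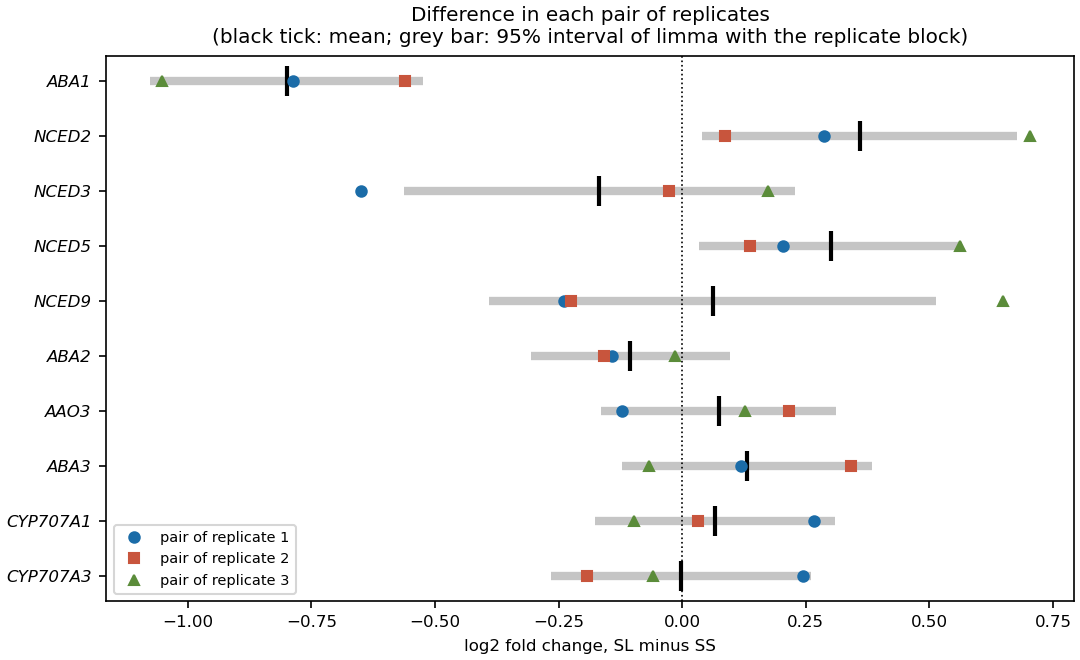
Log2 fold change (SL minus SS) of each gene in each of the 3 pairs (symbols), their mean (black tick) and the 95% interval of *limma* with the replicate block (grey bar). The interval of *ABA1* runs from -1.08 to -0.52, those of *NCED2* and *NCED5* lie just above 0, and the other 7 include 0.

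The 4 NCED genes did not move together. *NCED2* (AT4G18350, chromosome 4) had signals of 410, 523 and 522 in SL replicates 1 to 3 and 336, 492 and 321 in SS replicates 1 to 3. The ratio of SL to SS was above 1 in every pair, at 1.22, 1.06 and 1.63, although SL replicate 1 lay below SS replicate 2. The log2 fold change was 0.36 ± 0.21 (SE, n = 3 each; *limma*, adjusted p = 1), and with the block the interval was 0.04 to 0.68 with an adjusted p of 0.169. *NCED5* (AT1G30100, chromosome 1) had signals of 289, 324 and 219 in SL and 251, 295 and 148 in SS, with ratios of 1.15, 1.1 and 1.48. Both SL and SS were lowest in replicate 3, and the groups overlapped. Its log2 fold change was 0.30 ± 0.29 (SE; *limma*, adjusted p = 1), and with the block the interval was 0.03 to 0.57 with an adjusted p of 0.169. Without the block, leaving out SS replicate 3 alone gave 0.0094, and with the block, leaving out the pair of replicate 3 gave 0.17. For both genes the pair of replicate 3 gave the highest ratio.

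*NCED3* (AT3G14440, chromosome 3) is the member most strongly induced by drought in leaves. Its signals were 322, 284 and 332 in SL and 506, 289 and 294 in SS. A single array, SS replicate 1, stood above the other 5, and the ratios of 0.638, 0.982 and 1.13 had no common direction. The log2 fold change was -0.17, with a 95% interval of -0.56 to 0.23 with the block (*limma*, adjusted p = 0.568), and it was 0.10 without SS replicate 1. *NCED9* (AT1G78390, chromosome 1), known best from abscisic acid synthesis in seeds, had signals of 412, 364 and 249 in SL and 486, 425 and 159 in SS. The first and second pairs were lower in SL (ratios of 0.848 and 0.856) and the third was higher (1.57). Its log2 fold change was 0.06, with an interval of -0.39 to 0.51 with the block (*limma*, adjusted p = 0.869). As for *NCED5*, the lowest signal of each group was that of replicate 3.

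The genes downstream of the NCED step differed little between SL and SS. *ABA2* (AT1G52340, chromosome 1), the xanthoxin dehydrogenase gene, had signals of 423, 655 and 500 in SL and 466, 731 and 505 in SS. The order of the replicates was the same in both groups, with replicate 2 highest and replicate 1 lowest. The ratios were 0.907, 0.896 and 0.989, and the log2 fold change was -0.11, with an interval of -0.31 to 0.10 with the block (*limma*, adjusted p = 0.483). *AAO3* (AT2G27150, chromosome 2), which encodes the abscisic aldehyde oxidase, had signals of 1063, 1244 and 914 in SL and 1156, 1071 and 837 in SS. Here the pairs disagreed in sign, with a log2 fold change of 0.07 and an interval of -0.16 to 0.31 with the block (*limma*, adjusted p = 0.683). A second *AAO3* probe, designed to another transcript of the gene, was well above background on 0 of 6 arrays and gives no fold change. *ABA3* (AT1G16540, chromosome 1), the cofactor sulfurase gene, had signals of 639, 1239 and 951 in SL and 588, 979 and 996 in SS. The first and second pairs were higher in SL and the third was slightly lower, and the log2 fold change was 0.13 with an interval of -0.12 to 0.38 (*limma* with the block, adjusted p = 0.486).

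The breakdown genes had no common direction either. *CYP707A3* (AT5G45340, chromosome 5), one of the abscisic acid 8'-hydroxylase genes, had signals of 2295, 1162 and 3122 in SL and 1938, 1328 and 3254 in SS. The replicates kept the same order in both groups, with replicate 2 lowest and replicate 3 highest, and the batch means spanned 2.57-fold. SL and SS averaged 2193 ± 984 and 2174 ± 984 (SD, n = 3 each). With the block, the interval of the log2 fold change was -0.27 to 0.26, that is a fold change between 0.832 and 1.2 (*limma*, adjusted p = 0.99). A second probe showed the same order of replicates, with 2065, 908 and 2443 in SL and 1599, 1030 and 2359 in SS, and a log2 fold change of 0.08. The third probe, a dim one for *CYP707A3* was well above background on 2 of 3 SL arrays and 3 of 3 SS arrays. It was lower in SL in all 3 pairs, with a log2 fold change of -0.15 (*limma* with the block, adjusted p = 0.32), and it too was lowest in replicate 2 in each group.

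*CYP707A1* (AT4G19230, chromosome 4), an 8'-hydroxylase gene that is known to act in guard cells, had signals of 197, 149 and 182 in SL and 164, 146 and 195 in SS. The samples of the groups were intermingled. The log2 fold change was 0.07, with an interval of -0.18 to 0.31 with the block (*limma*, adjusted p = 0.719). A second *CYP707A1* probe gave 0.04 (adjusted p = 0.865), and its pairs had signs opposite to the first probe in replicates 1 and 3.

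For each of the 10 genes the plant batch went with more of the variation than the growth regime did, though for *NCED2* only by a little. When the sum of squares of the 6 log2 signals of a gene was split between replicate number, group and the rest, the replicate number held a median of 80.3% and the group a median of 3.66% over the 10 genes. Over all genes tested the medians were 73.2% and 10.9%. The replicate number has 3 levels and the group has 2, so that a larger replicate share is expected even without any effect. The replicate share was highest for *CYP707A3* (97.4%), *ABA2* (95.1%) and *ABA3* (92.2%). *NCED2* had the lowest replicate share (42.1%) and the highest group share (38.3%). *ABA1* had a replicate share of 61.5% and the next highest group share, 36.3%. Opposite orders of the batches were present, and each was seen in both groups: *ABA1* and *ABA2* were highest in replicate 2, where *CYP707A3* was lowest. The replicate number is confounded in part with the slide, since replicate 1 was on the first slide and replicates 2 and 3 were on the second. Over 3 batches these orders are a description.

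**Figure D3:**
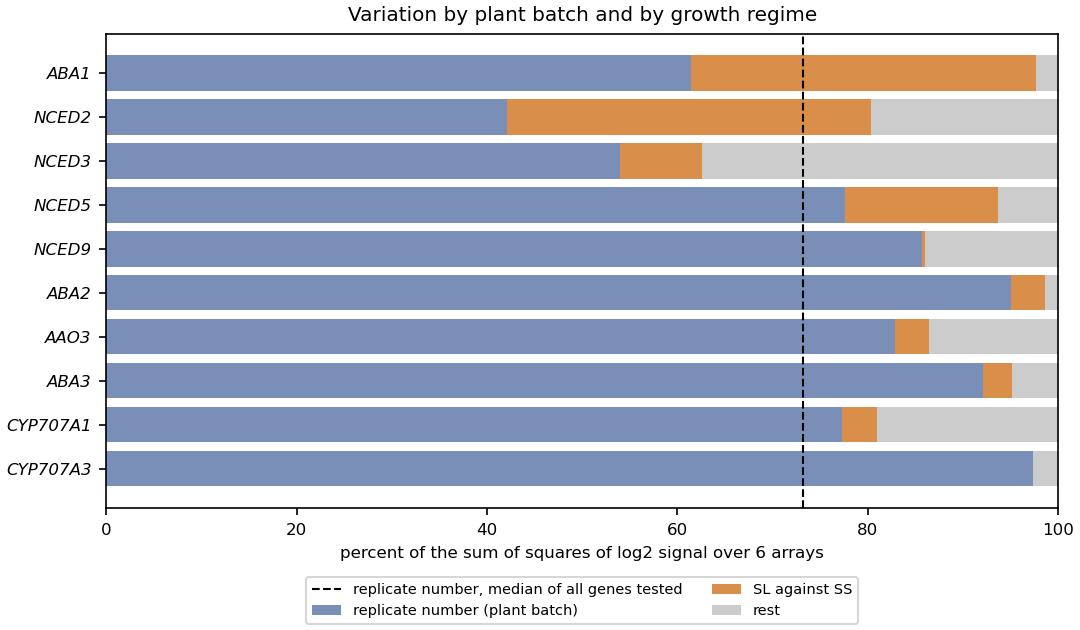
Share (percent) of the sum of squares of the log2 signal over 6 arrays that goes with the replicate number, with SL against SS, and with neither, for each gene by its brightest probe. The replicate share runs from 42.1% for *NCED2* to 97.4% for *CYP707A3*, and the dashed line marks its median over all genes tested, 73.2%.

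Around these genes, 26 further genes of carotenoid supply, cleavage, oxidation, conjugation and transport were examined, of which 22 had a measured probe. In all 3 pairs, 7 were higher and 8 were lower in SL, against 24.6% and 24.4% of all genes, and the other 7 had mixed signs. Their median log2 fold change was -0.12, and it was -0.27 without SL replicate 1 and 0.02 without SL replicate 2. Without the block 0 of the 22 were called, and 1 had an unadjusted p below 0.05, as had 3.72% of all genes. With the block *limma* called 0 higher and 3 lower, against 1.57% and 3.14% of all genes. *NCED6*, *AAO2*, *AAO4* and *CYP707A2* were well above background on at most 2 arrays of either group and were not tested.

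Of the 10 genes that supply carotenoids and xanthophylls, 4 were higher and 4 were lower in SL in all 3 pairs, and 0 were called. The range ran from *ABA4*, which is needed to form neoxanthin (log2 fold change -0.35; *limma* with the block, adjusted p = 0.0951), to *BCH2*, a β-carotene hydroxylase gene (0.27, adjusted p = 0.161). *LYC*, the lycopene β-cyclase gene, had signals of 709, 565 and 542 in SL and 719, 756 and 787 in SS. All 3 SL samples were below all 3 SS samples, which held for 4.21% of all genes, and the log2 fold change was -0.33 (*limma* with the block, adjusted p = 0.171).

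Among the relatives of the NCEDs and of *AAO3*, 2 carotenoid cleavage dioxygenase genes were lower in SL with the block. *CCD1*, whose product cuts carotenoids to volatile apocarotenoids, had signals of 3188, 1740 and 2999 in SL and 3931, 2585 and 4827 in SS. *CCD4*, a plastid dioxygenase gene linked to carotenoid turnover, had signals of 674, 350 and 908 in SL and 1205, 470 and 1288 in SS. Neither makes xanthoxin. Their log2 fold changes were -0.52 and -0.59, with adjusted p of 0.0495 and 0.0416 (*limma* with the block), and in both the groups overlapped. *AAO1*, another aldehyde oxidase gene, was the only measured one of these 3 relatives to be higher, with 1147, 1805 and 1202 in SL and 895, 956 and 921 in SS. All 3 SL samples were above all 3 SS samples, as for 4.01% of all genes, but the log2 fold change of 0.55 did not pass the test with the block (*limma*, adjusted p = 0.0724, and 0.0397 without replicate 3). A second *AAO1* probe was higher in all 3 pairs with overlapping groups and had an adjusted p of 0.0515.

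In breakdown and conjugation, *BGLU33*, a β-glucosidase gene whose product is known to release abscisic acid from its glucose ester in the vacuole, was lower with the block. Its signals were 1890, 937 and 902 in SL and 2443, 1734 and 1513 in SS, with a log2 fold change of -0.67 (*limma* with the block, adjusted p = 0.0404), and a second probe gave -0.62 (adjusted p = 0.0368). The glucosyltransferase gene *UGT71C5*, which acts in the opposite direction, was at the upper end of this group, with a log2 fold change of 0.25 (adjusted p = 0.181). Of the 4 transporter genes, 0 had the same sign in all 3 pairs, and they ran from *DTX50* (-0.17) to *NPF4.6* (0.14). The call of *CCD1* was lost in every other setting with the replicate block. Those of *CCD4* and *BGLU33* were kept only without replicate 3 and with quantile normalization within each slide. The sign stayed negative for all 3. Without replicate 1 the adjusted p was 0.104 for *CCD1*, 0.162 for *CCD4* and 0.0728 for *BGLU33*, without replicate 2 it was 0.241, 0.179 and 0.216 in the same order, and without replicate 3 that of *CCD1* was 0.0557. With processed intensities scaled to the 75th percentile these p were 0.111, 0.0703 and 0.0692, with normexp intensities so scaled 0.188, 0.125 and 0.129, and with quantile normalization within each slide that of *CCD1* was 0.055. With a pair left out, the log2 fold change with the block ran from -0.63 to -0.44 for *CCD1*, from -0.67 to -0.46 for *CCD4* and from -0.82 to -0.56 for *BGLU33*. The mesophyll markers were lower in SL together with these genes, and their part in the result was not tested. Within each group *CCD1* and *CCD4* were lowest in replicate 2, as was the mesophyll sum. *BGLU33* was lowest in replicate 3, and *ABA1* was highest in replicate 2.

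**Figure D4:**
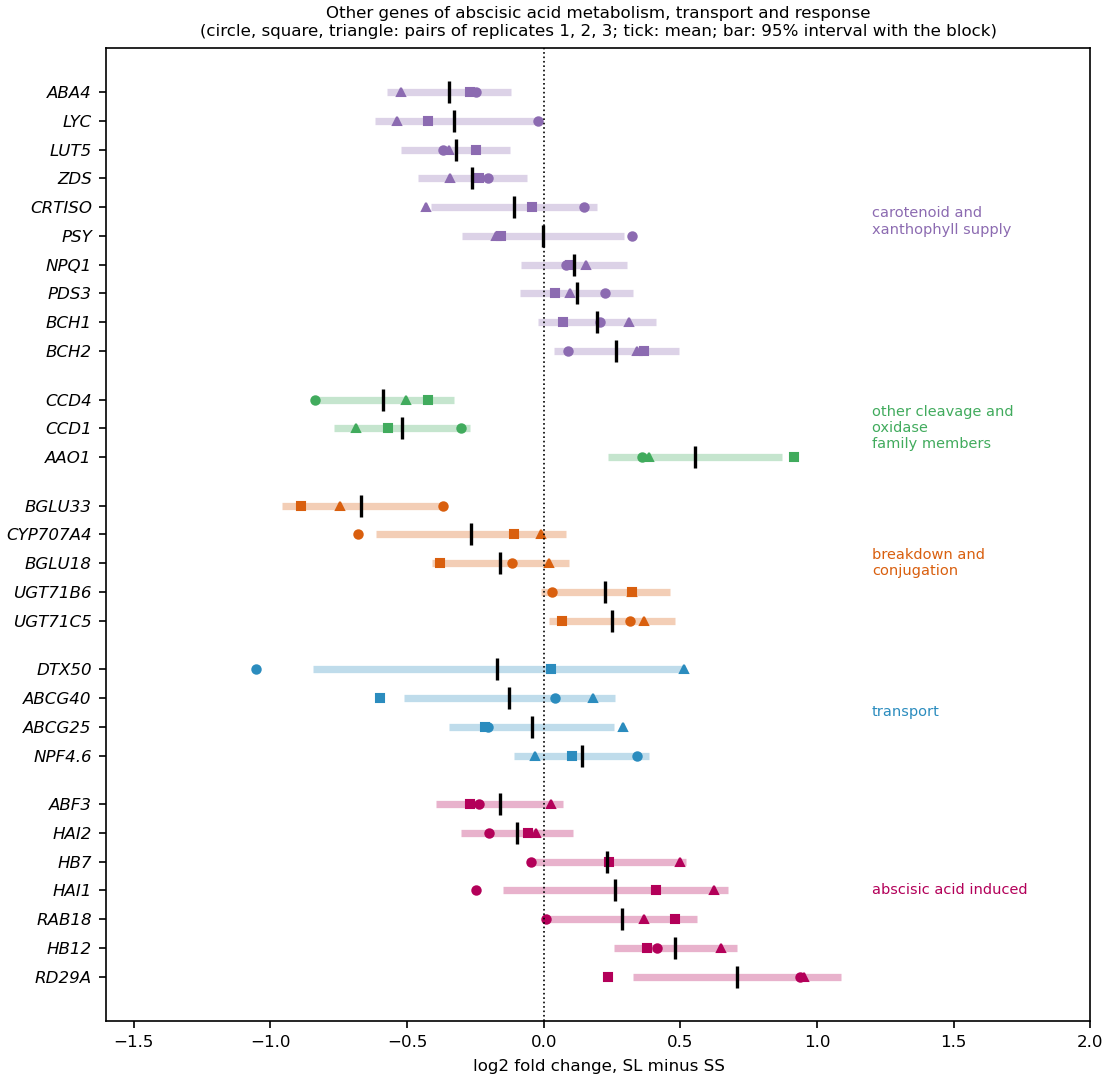
Log2 fold change (SL minus SS) of the other measured genes of abscisic acid metabolism, transport and response by their brightest probe, ordered by role, with the 3 pairs (symbols), their mean (tick) and the 95% interval of *limma* with the replicate block (bar). *BGLU33*, *CCD4* and *CCD1* have the lowest means, and *RD29A*, *AAO1* and *HB12* the highest.

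Of 8 genes that abscisic acid is known to induce, 7 were measured, and *RD29B* was not. In all 3 pairs 3 were higher and 1 was lower in SL, against 24.6% and 24.4% of all genes. The median log2 fold change was 0.26, and it was 0.04 without SS replicate 2, 0.03 without SS replicate 3, 0.49 without SS replicate 1 and 0.53 with processed intensity scaled to the 75th percentile. Without the block 0 of the 7 were called, and with the block *limma* called 1 higher, against 1.57% of all genes. This was *HB12*, which encodes a homeodomain-leucine zipper protein, with signals of 2268, 1474 and 2367 in SL and 1700, 1134 and 1511 in SS. Its log2 fold change was 0.48 (adjusted p = 0.0471 with the block), and the groups overlapped. The adjusted p of *HB12* was 0.162, 0.202 and 0.0545 without replicates 1, 2 and 3, 0.0542 with quantile normalization within each slide, and 0.065 and 0.146 with the 2 scalings to the 75th percentile. In these fits its log2 fold change lay between 0.40 and 0.63. *RD29A*, a gene induced by drought and cold, had signals of 2775, 2344 and 5121 in SL and 1451, 1990 and 2649 in SS, with a log2 fold change of 0.71 (*limma* with the block, adjusted p = 0.0625). On a second *RD29A* probe, given after its values were seen, the groups did not overlap. It had 278, 209 and 268 in SL and 127, 155 and 167 in SS, with an adjusted p of 0.0459 (*limma* with the block). By brightest probes 4.01% of all genes had SL above SS without overlap, and no such share was counted for second probes. *ABF3*, a bZIP transcription factor gene of the abscisic acid response, was at the lower end with -0.16 (adjusted p = 0.355).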

How the data were processed

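RNA of GCPs from SL and SS plants was measured on 6 single-colour Agilent arrays, 3 per group by the labels. Spot values came from Agilent Feature Extraction 11.5.1.1, run by the authors on a design built on TAIR10, and the deposited intensity values were not normalized between arrays. The study's methods name *limma* for normalization and no block for the test. Here, the deposited median intensity was corrected by normexp (offset 50), quantile normalized over 6 arrays and taken as log2 (*limma* 3.58.1 in R 4.3.3). Spots for controls or marked as outliers were dropped. The test took in the 28852 probes that were well above background on every array of SL, of SS or of both, with Benjamini-Hochberg adjustment over all of them. Identifiers were matched to loci through a RefSeq table of another assembly (78.8% of probes), so no coordinates are given. A gene is given by its brightest kept probe. All 10 genes are named. Of the other lists, those called, those whose groups do not overlap, and the lowest and highest of each role are named. Genes not measured, *RAB18* and second probes of these other genes were added after their values were seen.

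The replicate numbers pair the samples, since the series describes an independent plant batch for each number. Across probes, deviations from the group means correlated at 0.71, 0.855 and 0.739 within same-numbered pairs and between -0.58 and -0.161 otherwise. Deviations within a group cancel out, so that positive values within pairs force negative ones elsewhere. Members and lists were chosen with earlier results of these data known. Alternatives were other background corrections, normalizations and filters, a block for replicate or slide, the methods' t-test, and leaving out each array or pair. The deposited series matrix, which holds the processed intensity of the scanner software, was one of them. The number of arrays limits the precision. A planned comparison of protein and promoter sequences was not run, and probe specificity between family members was not examined here.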

Additional observations from a re-analysis of the deposited data

How the results depend on the processing

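Without the block, 0 probes and 0 of the 10 genes were called in the fit given and in every alternative run, including leaving out each array (range 0 to 0), and adjusted p of the 10 genes were between 0.687 and 1. With the replicate block, 1297 probes were called, and 561, 47 and 1091 with processed intensity set to a common 75th percentile, normexp intensity set likewise, and quantile normalization within each slide. Leaving out a pair gave between 0 (without replicate 2) and 2609 (without replicate 3), with 51 without replicate 1. Of the 10 genes, 1 was called with the block, with quantile normalization within each slide (1) and without replicate 3 (range 0 to 1 over the pairs left out), and 0 with the other block settings. The block changed no call of the 10 genes other than that of *ABA1*, which stayed negative throughout (-1.16 to -0.47).

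Medians over the lists moved with single arrays left out: between -0.03 and 0.10 for the 10 genes, between -0.27 and 0.02 for the other pathway genes and between 0.03 and 0.49 for the response genes. With normexp intensity set to a common 75th percentile they were 0.10, -0.03 and 0.28. With an array left out, *NCED5* was between 0.0094 and 0.50, *CCD1* between -0.77 and -0.24 and *CCD4* between -1.06 and -0.20, without a change of sign.

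Signs turned mostly for genes near 0. *NCED3* was between -0.31 and 0.10 with an array left out and between -0.34 and 0.073 with a pair left out (replicate block). *NCED9* was -0.062 on the scale of the methods' t-test, between -0.44 and 0.36 with an array left out and between -0.23 and 0.21 with a pair left out. With an array left out, *ABA2* was between -0.28 and 0.092, *ABA3* between -0.12 and 0.39 and *AAO3* between -0.063 and 0.18. *RAB18*, an abscisic acid induced gene, was not near 0, with a log2 fold change of 0.29. With an array left out it was between -0.11 and 0.59, and its sign turned only without SS replicate 2. *CYP707A1* was between -0.030 and 0.18 with an array left out and between -0.033 and 0.15 with a pair left out. *CYP707A3* was 0.087 with processed intensity set to a common 75th percentile, 0.044 with normexp intensity set likewise (both also with the replicate block), 0.00068 with the series matrix, 0.013 by the methods' t-test, between -0.31 and 0.40 with an array left out and between -0.13 and 0.092 with a pair left out (0.026 without replicate 3). The cause was not tested. Over all settings, between 2 and 4 of the 10 genes were higher and between 1 and 4 were lower in all pairs used, and of the response genes between 2 and 5 were higher and between 0 and 2 were lower. With the block, 3 of the other pathway genes were called, 2 with quantile normalization within each slide, 3 without replicate 3 and 0 otherwise. Those called without replicate 3 were *CCD4*, *BGLU33* and *AAO1*. The 1 response gene was called in no other block setting. The second *AAO3* probe was well above background on 0 of 6 arrays, so that the transcript it was designed to gives no fold change.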
